A study of Saccharomyces cerevisiae with 17 samples.

Results

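The 10 genes described here encode enzymes of brewing yeast that use NADPH, and in the case of LOT6 also NADH, to reduce aldehydes, ketones and quinones. They were chosen by name, as the old yellow enzymes OYE2 and OYE3, the aldo-keto reductases GRE3, ARA1, YPR1 and GCY1, the methylglyoxal reductase GRE2, the putative aryl alcohol dehydrogenases AAD4 and AAD14, and the quinone reductase LOT6. All 10 were found among the 5449 Saccharomyces cerevisiae genes measured, on 11 probe sets, because AAD4 has a pair of them. The study followed the response of the lager brewing strain CB11 to oxidative stress in a brewery with Affymetrix yeast arrays, 17 in all. Every value below is a log2 level from these arrays, or a difference between such levels.

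Fermentation was sampled from a 3275 hL vessel at 8 h (3 arrays), 30 h (2 arrays) and 60 h (3 arrays). It was pitched with fourth-generation yeast, its wort held 25 mg/L oxygen and 0.2 mg/L zinc, and the 8 h sample came 5 h after the last oxygenated wort. Propagation, the aerobic growth of the yeast crop, was sampled from a 140 hL vessel at 0, 8 and 30 h with 3 arrays each, at 7 to 8 mg/L dissolved oxygen and 0.5 mg/L zinc. Both used wort of 85% malt and 15% sugar adjunct. The arrays of a time, named A, B and C, came from a single vessel, so p-values measure only the spread between samples of that vessel. Stage, vessel, oxygen supply, zinc and yeast generation change together and cannot be told apart. In a bulk sample, fewer cells of a type and less RNA per cell cannot be told apart either.

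Yeast forms reactive aldehydes and dicarbonyls, such as methylglyoxal, as by-products of sugar and lipid metabolism, and takes up wort aldehydes and quinones. Reductases of the old yellow enzyme, aldo-keto and flavodoxin-like families turn these into less reactive products, such as alcohols and hydroquinones. The electrons come from NADPH, which is made largely by the pentose phosphate pathway. In beer making such enzymes are known for removing the aldehydes that give wort its raw flavour. Several of the genes are known targets of the oxidative stress regulator Yap1 or of the general stress regulators Msn2 and Msn4. A lager yeast carries the genomes of Saccharomyces cerevisiae and of a cold-tolerant relative, and a probe set may read transcripts from either parent.

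The propagation 8 h and 30 h arrays, 6 in all, stand apart from the other 11. Over all genes they correlated at 0.369 to 0.563 with the others, and at 0.881 to 0.959 among themselves. Spiked hybridization controls read a mean log2 level of 12.16 to 12.85 on them, against 4.83 to 10.69 on the others. The 4.83 belongs to propagation 0 h B alone, and the rest of the others read 8.71 to 10.69. The median log2 level of 13 meiosis and sporulation genes lay between 7.25 and 8.18 for these 6, against 4.51 to 5.96 for the rest, and that of 12 haploid mating genes lay between 7.41 and 8.46, against 5.21 to 6.69. At propagation 8 h against 0 h, 11 of the 13 and 9 of the 12 rose and none fell, beside 24.3% of all genes rising and 43.1% falling. On the same 6 arrays the median log2 level of 9 glycolytic and housekeeping genes was 9.91 to 11.76, against 10.63 to 13.26 on the others, all well above the 95th percentile of probe sets for another species (4.52 to 5.63). At propagation 8 h this median was 11.22 to 11.76, inside the 10.63 to 11.97 of 0 h, and 2 of the 9 rose and 1 fell. At 30 h it was 9.91 to 10.37, and none of the 9 rose and 5 fell, beside 28.6% of all genes rising and 38.7% falling. The 10 reductases had a median of 7.58 to 7.95 on these 6 arrays, against 8.69 to 10.08 elsewhere. The part of these array differences in the results below was not tested, and no comparison with propagation 8 h or 30 h can be made without those arrays.

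**Figure D1:**
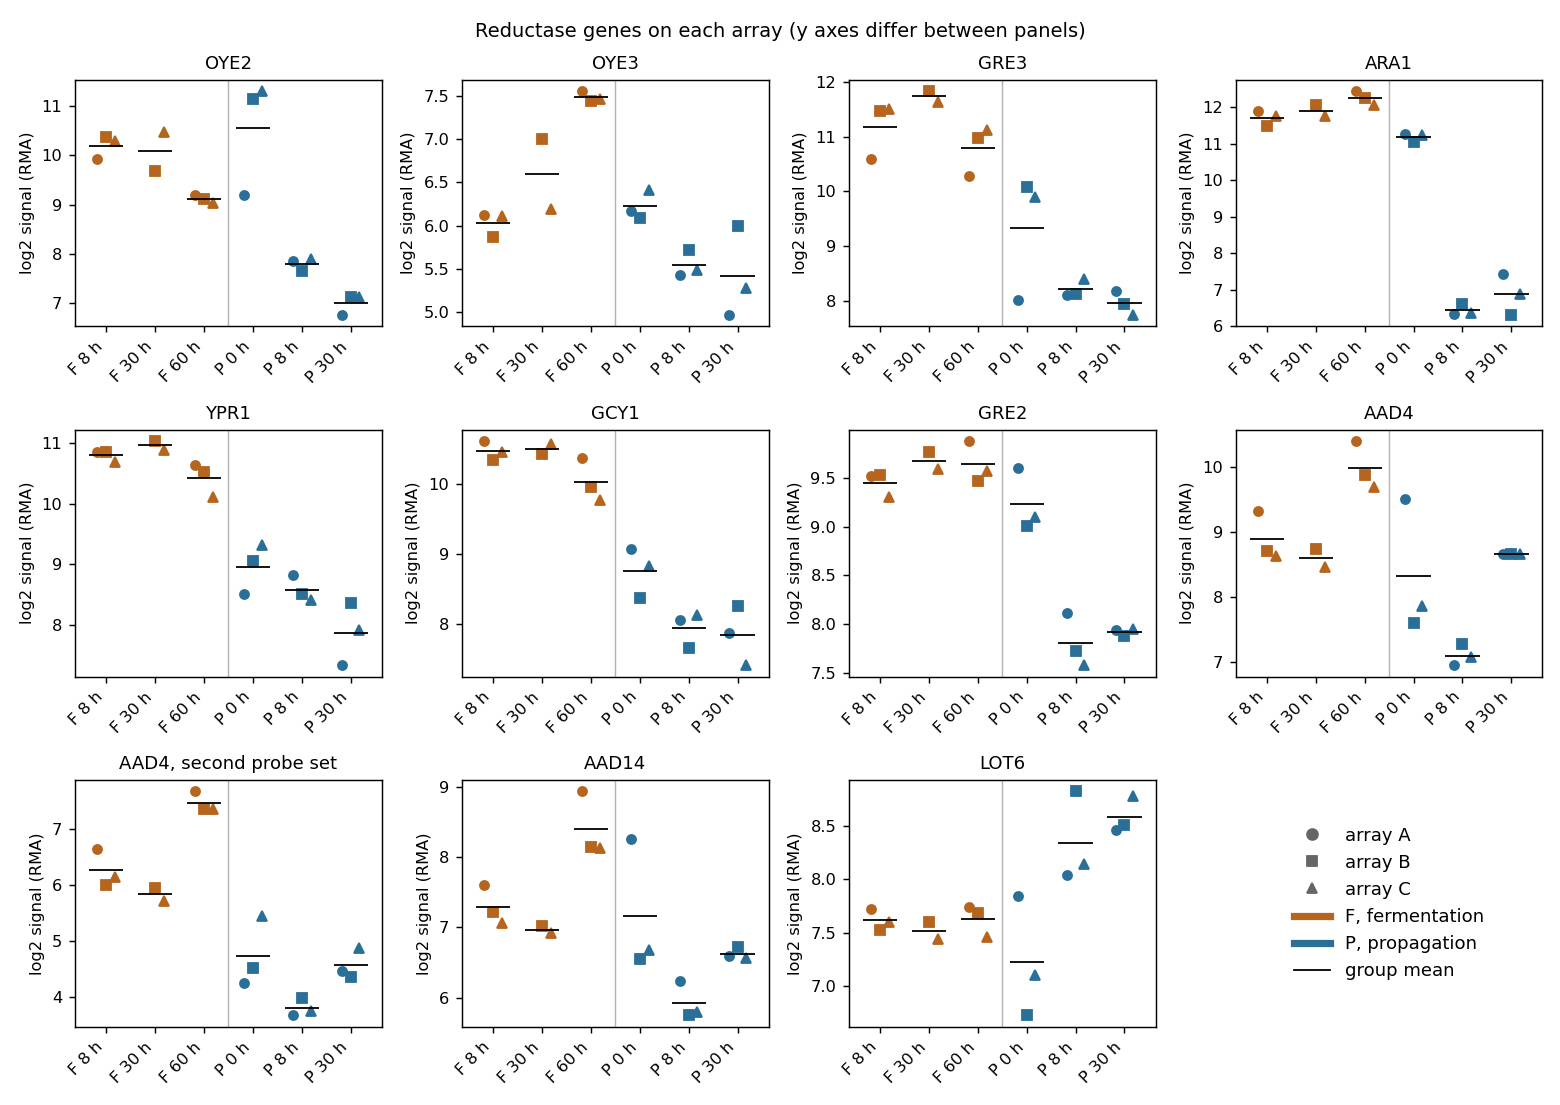
Log2 level of each reductase gene on each of the 17 arrays, with fermentation (F, brown) left of propagation (P, blue), times in hours, marker shapes for arrays A, B and C, and a black line at each group mean. ARA1 drops to between 6.30 and 7.44 on the propagation 8 h and 30 h arrays, while LOT6 is the gene with its highest levels there.

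Late fermentation set against the start of propagation compares none of those 6 arrays, although they enter the shared estimate of spread. At fermentation 60 h, 7 of the 10 genes were higher than at propagation 0 h: OYE3, GRE3, ARA1, YPR1, GCY1, AAD4 and AAD14. OYE2 was the single one that fell, and GRE2 and LOT6 did not pass the test. Among all genes, 25.3% rose and 15.7% fell in this comparison (limma, adjusted p under 0.05). The median log2 change of the 10 genes was 1.26, beside 0.18 over all genes. Array A of propagation 0 h differed from arrays B and C of its group by an SD of 1.17 and 1.08 over genes, while B and C differed by 0.370. Without it, 9 of the 10 genes rose and OYE2 fell, beside 27.3% of all genes rising and 21.5% falling. With both groups fitted alone OYE3, ARA1, YPR1 and GCY1 passed, 4 of the 10, beside 1299 of all 5449 genes.

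At fermentation 8 h the difference from propagation 0 h was already present for 3 of the 10 genes, GRE3, YPR1 and GCY1, with 16.5% of all genes rising. Without propagation 0 h A, 6 of the 10 rose and OYE2 fell, beside 17.8% of all genes rising and 17.2% falling. From 8 h to 30 h of fermentation none of the 10 genes passed the test, and neither did any other gene (0% of all genes). At an unadjusted p under 0.05, 189 of the 5449 genes and none of the 10 differed, and with array weights 313 genes passed in limma. At 60 h against 8 h, OYE3 and AAD14 rose (2 of 10, with 9.21% of all genes rising). At 60 h against 30 h none of the 10 was among the 4.31% of genes that changed. An unadjusted p under 0.05 in limma was reached there by 4 of the 10, beside 1122 of all 5449 genes. Without propagation 0 h A, 4 of the 10 passed at 60 h against 8 h, beside 27.2% of all genes, and 5 at 60 h against 30 h, beside 14%. At 60 h against 8 h the fit over all arrays with the array letter as a block gave 4 of the 10, with OYE2 falling and AAD4 rising as well, beside 19.1% of all genes. The same block within fermentation 60 h, fermentation 8 h and propagation 0 h gave 3 of the 10, with AAD4 but not OYE2, beside 19.5%.

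Within propagation, most of the genes were lower after 0 h. At 8 h, 8 of the 10 fell and LOT6 alone rose, beside 43.1% of all genes falling and 24.3% rising. At 30 h, 7 fell and LOT6 rose, beside 38.7% falling and 28.6% rising. Without propagation 0 h A, AAD4 rose at 30 h as well (0.94, adjusted p = 0.00262 in limma), beside 29.4% of all genes rising. The median log2 change of the 10 genes was -1.17 at 8 h and -1.0 at 30 h, against -0.44 and -0.25 over all genes. Tested genes were split by their mean fermentation level into 4 equal classes, and the bright ones mostly fell in propagation. Fermentation arrays, like those of propagation 0 h, are unlike the propagation 8 h and 30 h arrays, as described above. Classes set on them can by that choice alone hold bright genes that fall and dim ones that rise. The dimmest class had a median of 0.57 at 8 h, and the part of this choice was not tested. In the brightest class, which holds OYE2, GRE3, ARA1, YPR1, GCY1, GRE2 and AAD4, 69.4% fell at 8 h with a median of -1.41, and 66.9% fell at 30 h with a median of -1.42. With each array recentred on its median, 4 of the 10 passed at 8 h, with OYE2, ARA1 and GRE2 lower and LOT6 higher. Beside them 35% of all genes fell and 31.1% rose with recentred arrays. The same 4 passed with both groups fitted alone. The count of all called genes in that fit stayed within 1.5 times of the 3673 in the reported fit. Between 8 h and 30 h only AAD4 rose, with 3.08% of all genes, and that call is described with the gene below. At 30 h, OYE3 did not pass without 30 h A (adjusted p = 0.0734 in limma), nor GRE3 without 0 h B (adjusted p = 0.0524). These comparisons share their propagation arrays and are not independent of each other.

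Fermentation was above propagation at the matched times. At 8 h, 8 of the 10 genes were higher in fermentation and LOT6 was lower, beside 44.7% of all genes higher and 24.4% lower. At 30 h, 7 were higher and LOT6 lower, beside 37.5% and 27.9%. The median log2 difference of the 10 genes was 2.01 at 8 h and 2.20 at 30 h, against 0.49 and 0.24 over all genes. The brightest class by fermentation level holds OYE2, GRE3, ARA1, YPR1, GCY1, GRE2 and AAD4. Of that class 69.4% fell at propagation 8 h and 66.9% at 30 h against 0 h, and it was not set beside these differences. The change from 8 h to 30 h differed between the stages for 0.275% of all genes and for none of the 10. An unadjusted p under 0.05 in limma was reached by 2 of the 10, beside 598 of all 5449 genes. Without propagation 0 h A, AAD4 passed that test.

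OYE2 (YHR179W) encodes the main old yellow enzyme, a flavoprotein that reduces the double bond of unsaturated aldehydes and ketones. In fermentation OYE2 had log2 levels of 9.93, 10.36 and 10.29 at 8 h, 9.68 and 10.48 at 30 h, and 9.19, 9.12 and 9.02 at 60 h. In propagation OYE2 had log2 levels of 9.18, 11.14 and 11.30 at 0 h, 7.85, 7.66 and 7.89 at 8 h, and 6.76, 7.13 and 7.13 at 30 h. OYE2 was the only one of the 10 with its highest group mean at propagation 0 h, where arrays B and C lie above every fermentation array and array A lies level with fermentation 60 h. The log2 change was -1.43 (SE 0.40) at fermentation 60 h against propagation 0 h, with an adjusted p of 0.00935 (limma). It was -2.11 without propagation 0 h A, and the call was lost without array C (-1.05, adjusted p = 0.0549) or with both groups fitted alone (adjusted p = 0.0961). Every 60 h array lay below every 8 h array of fermentation, but the log2 change of -1.08 (SE 0.40) had an adjusted p of 0.0795 in limma. With the letter as a block its adjusted p was 0.0495 over all arrays and 0.107 within the 3 groups named above. Leaving out propagation 0 h A gave an adjusted p of 0.00129, and leaving out the 3 arrays of largest control gap described below gave -1.26 with an adjusted p of 0.00235. In propagation OYE2 fell by 2.74 on the log2 scale at 8 h (SE 0.40, adjusted p = 1.47e-05 in limma) and fell by 3.54 at 30 h (SE 0.40, adjusted p = 8.07e-07). Group means of propagation 0 h, fermentation 8 h and fermentation 30 h followed each other within the pooled SD between arrays of 0.55.

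OYE3 (YPL171C) encodes a related isoform of the same enzyme family. In fermentation OYE3 had log2 levels of 6.13, 5.87 and 6.11 at 8 h, 7.00 and 6.20 at 30 h, and 7.56, 7.44 and 7.46 at 60 h. In propagation OYE3 had log2 levels of 6.17, 6.09 and 6.41 at 0 h, 5.42, 5.72 and 5.49 at 8 h, and 4.96, 6.0 and 5.28 at 30 h. It was the dimmest of the 10 probe sets, above the other-species percentile on 14 of 17 arrays, and the 3 arrays below it were all from propagation 8 h and 30 h. The 60 h arrays of fermentation lay above all others and did not overlap with them. OYE3 rose by 1.45 on the log2 scale at fermentation 60 h against 8 h (SE 0.26, 2.74-fold, adjusted p = 0.00146 in limma) and by 1.26 against propagation 0 h (SE 0.26, adjusted p = 0.00126). The first of these log2 changes stayed between 1.29 and 1.50 over all alternatives that tested the gene, and each time it passed. Its fall at propagation 8 h (-0.68, SE 0.26, adjusted p = 0.0311) was lost with recentred arrays (-0.34, adjusted p = 0.257) and without 0 h C (adjusted p = 0.101), 8 h A (0.0820) or 8 h C (0.0720). Fermentation 30 h exceeded propagation 30 h by 1.19 (SE 0.30, adjusted p = 0.00203), a call that was lost without fermentation 30 h B (0.78, adjusted p = 0.0715).

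The difference between the OYE pair was also followed within each array. The OYE3 minus OYE2 log2 difference on each array was -3.80, -4.49 and -4.19 at fermentation 8 h, -2.67 and -4.28 at 30 h, and -1.63, -1.68 and -1.56 at 60 h. In propagation it was -3.02, -5.05 and -4.89 at 0 h, -2.43, -1.94 and -2.40 at 8 h, and -1.80, -1.13 and -1.85 at 30 h. Because each probe set has its own brightness, only the shift between groups can be read and not the ratio of the transcripts. The mean at fermentation 60 h was 2.54 above that at 8 h and 2.70 above that at propagation 0 h, with no overlap between the groups in either case. The exact permutation test gave a two-sided p of 0.1 for each, the smallest that 3 against 3 arrays allow, so neither difference could pass.

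**Figure D2:**
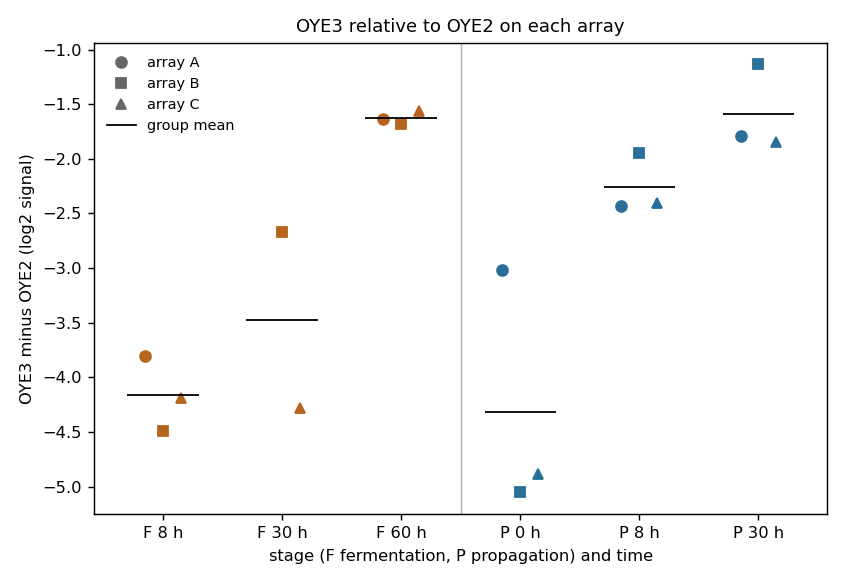
OYE3 minus OYE2 log2 difference on each array, with fermentation (F) left of propagation (P), marker shapes for arrays A, B and C, and a black line at each group mean. The 3 fermentation 60 h arrays lie between -1.68 and -1.56, above the 8 h arrays, which lie between -4.49 and -3.80.

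GRE3 (YHR104W) encodes an aldose reductase that also reduces methylglyoxal. In fermentation GRE3 had log2 levels of 10.59, 11.46 and 11.50 at 8 h, 11.83 and 11.64 at 30 h, and 10.28, 10.98 and 11.12 at 60 h. In propagation GRE3 had log2 levels of 8.01, 10.07 and 9.90 at 0 h, 8.11, 8.13 and 8.40 at 8 h, and 8.18, 7.95 and 7.74 at 30 h. All fermentation arrays lay above all propagation arrays, and array A was the lowest of its group at fermentation 8 h, fermentation 60 h and propagation 0 h. Those 3 arrays also had the largest gaps between 3-prime and 5-prime probe sets of control genes, a sign of incomplete transcripts, at 3.48, 3.91 and 4.26 on the log2 scale. Propagation 0 h C followed at 3.04 and the other arrays had at most 1.98, and the part of this gap in the GRE3 levels was not tested. GRE3 rose by 1.86 at fermentation 8 h against propagation 0 h (SE 0.42, adjusted p = 0.00340 in limma) and by 1.46 at fermentation 60 h (SE 0.42, adjusted p = 0.0107). Without propagation 0 h A these log2 changes were 1.20 and 0.81, and without all 3 arrays of large gap they were 1.50 and 1.06, each time passing the test. With both groups fitted alone the adjusted p was 0.0774 and 0.0981. Its fall of 1.12 on the log2 scale at propagation 8 h (SE 0.42, adjusted p = 0.0266), where the groups overlap, was lost without propagation 0 h B (adjusted p = 0.143) or C (0.124), or 8 h A (0.0670) or B (0.0654), and with recentred arrays (0.102). At fermentation 30 h GRE3 was 3.78 above propagation 30 h (SE 0.47, 13.8-fold, adjusted p = 2.40e-06).

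ARA1 (YBR149W) encodes an arabinose dehydrogenase that also works as a carbonyl reductase, and it varied most among the 10 genes. In fermentation ARA1 had log2 levels of 11.90, 11.49 and 11.75 at 8 h, 12.05 and 11.76 at 30 h, and 12.44, 12.24 and 12.06 at 60 h. In propagation ARA1 had log2 levels of 11.27, 11.06 and 11.22 at 0 h, 6.34, 6.61 and 6.36 at 8 h, and 7.44, 6.30 and 6.87 at 30 h. The 6 arrays that stand apart are thus far below the other 11, which lie between 11.06 and 12.44. ARA1 fell by 4.75 on the log2 scale at propagation 8 h (SE 0.26, 26.8-fold, adjusted p = 1.20e-09 in limma) and fell by 4.32 at 30 h (SE 0.26, adjusted p = 1.10e-09). The range of its group means, 5.81, lies at the 99.5th percentile of all genes, whose median range was 1.98. At fermentation 8 h ARA1 was 5.28 above propagation 8 h (SE 0.26, adjusted p = 4.36e-10) and at 30 h it was 5.03 above propagation 30 h (SE 0.29, adjusted p = 1.42e-09). Against propagation 0 h it rose by 1.07 at fermentation 60 h (SE 0.26, adjusted p = 0.00331), while at 8 h the log2 change of 0.53 did not pass (adjusted p = 0.137). Its group means at fermentation 30 h and 8 h were closer than the pooled SD of 0.29.

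YPR1 (YDR368W) and GCY1 (YOR120W) encode aldo-keto reductases that are paralogs, the first able to reduce branched-chain aldehydes and the second linked to glycerol metabolism. In fermentation YPR1 had log2 levels of 10.86, 10.87 and 10.69 at 8 h, 11.04 and 10.89 at 30 h, and 10.63, 10.53 and 10.11 at 60 h. In propagation YPR1 had log2 levels of 8.52, 9.05 and 9.32 at 0 h, 8.82, 8.51 and 8.41 at 8 h, and 7.33, 8.37 and 7.91 at 30 h. No fermentation array of YPR1 overlapped with a propagation array. YPR1 rose by 1.85 at fermentation 8 h against propagation 0 h (SE 0.27, 3.59-fold, adjusted p = 0.000110 in limma) and by 1.47 at 60 h (SE 0.27, adjusted p = 0.000473). The first log2 change ran from 1.59 to 2.02 over the alternatives and passed in each. In propagation its fall of 1.09 on the log2 scale at 30 h passed (SE 0.27, adjusted p = 0.00199), and its log2 change of -0.38 at 8 h did not (adjusted p = 0.226). Array weights brought the 8 h change past the threshold (-0.63, adjusted p = 0.0305), and so did leaving out propagation 0 h A (-0.60, adjusted p = 0.0499).

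GCY1 followed the same order of groups. In fermentation GCY1 had log2 levels of 10.62, 10.34 and 10.47 at 8 h, 10.44 and 10.58 at 30 h, and 10.37, 9.96 and 9.78 at 60 h. In propagation GCY1 had log2 levels of 9.08, 8.38 and 8.84 at 0 h, 8.07, 7.66 and 8.13 at 8 h, and 7.88, 8.27 and 7.42 at 30 h. Again all fermentation arrays were above all propagation arrays. GCY1 rose by 1.71 at fermentation 8 h against propagation 0 h (SE 0.26, 3.27-fold, adjusted p = 0.000139 in limma) and by 1.27 at 60 h (SE 0.26, adjusted p = 0.00104). Its fall at propagation 8 h (-0.81, SE 0.26, adjusted p = 0.0109) was lost with recentred arrays (-0.47, adjusted p = 0.138), with quantile normalization (adjusted p = 0.160) and without propagation 8 h B (adjusted p = 0.0537). For both paralogs the fermentation 30 h and 8 h means lay within the pooled SD between arrays, 0.32 for YPR1 and 0.30 for GCY1.

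GRE2 (YOL151W) encodes a methylglyoxal reductase that also acts on isovaleraldehyde. In fermentation GRE2 had log2 levels of 9.52, 9.53 and 9.31 at 8 h, 9.76 and 9.59 at 30 h, and 9.88, 9.47 and 9.57 at 60 h. In propagation GRE2 had log2 levels of 9.61, 9.01 and 9.10 at 0 h, 8.11, 7.73 and 7.58 at 8 h, and 7.94, 7.88 and 7.95 at 30 h. All fermentation arrays and the propagation 0 h arrays share 1 band, above the later propagation arrays. Against propagation 0 h the log2 change was 0.22 (SE 0.22, adjusted p = 0.518 in limma) at fermentation 8 h and 0.40 (SE 0.22, adjusted p = 0.157) at 60 h. The fermentation 60 h change passed without propagation 0 h A (0.59, adjusted p = 0.0278). In propagation GRE2 fell by 1.43 on the log2 scale at 8 h (SE 0.22, adjusted p = 2.35e-05) and fell by 1.31 at 30 h (SE 0.22, adjusted p = 5.24e-05). Its 3 fermentation means followed each other within the pooled SD of 0.21.

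AAD4 (YDL243C) and AAD14 (YNL331C) belong to a family of near-identical genes that resemble fungal aryl alcohol dehydrogenases, and their activity in yeast is not well established. The brighter AAD4 probe set is marked by the array design as shared with similar sequences, so it may also read other members of the family, and the values below cannot be assigned to AAD4 alone. In fermentation AAD4 had log2 levels of 9.32, 8.71 and 8.64 at 8 h, 8.74 and 8.47 at 30 h, and 10.40, 9.89 and 9.70 at 60 h. In propagation AAD4 had log2 levels of 9.51, 7.60 and 7.86 at 0 h, 6.95, 7.28 and 7.08 at 8 h, and 8.67, 8.66 and 8.67 at 30 h. The 60 h arrays of fermentation were the highest, and propagation 0 h A was well above B and C. AAD4 rose by 1.67 at fermentation 60 h against propagation 0 h (SE 0.37, 3.19-fold, adjusted p = 0.00198 in limma). Against fermentation 8 h the log2 change of 1.10 (SE 0.37, adjusted p = 0.0543) did not pass, but it passed without propagation 0 h A (adjusted p = 0.00146), B (0.0334) or fermentation 8 h A (1.32, adjusted p = 0.0453). It also passed with the letter as a block, over all arrays (adjusted p = 0.0266) and within the 3 groups (adjusted p = 0.0308).

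The other AAD4 probe set is dimmer and lies above the other-species percentile on 9 of 17 arrays, all 8 from fermentation and propagation 0 h C. In fermentation this probe set had log2 levels of 6.63, 6.0 and 6.15 at 8 h, 5.95 and 5.71 at 30 h, and 7.67, 7.36 and 7.36 at 60 h. In propagation it had log2 levels of 4.26, 4.51 and 5.45 at 0 h, 3.67, 3.98 and 3.75 at 8 h, and 4.46, 4.35 and 4.88 at 30 h. On it every fermentation array exceeded every propagation array, and the log2 change passed at fermentation 60 h against 8 h (1.20, SE 0.28, adjusted p = 0.00830 in limma). Both probe sets agree in sign there, but they disagree on fermentation 30 h against propagation 30 h, where the brighter set gave -0.06 (SE 0.42, adjusted p = 0.903) and the dimmer set 1.27 (SE 0.32, adjusted p = 0.00212). The dimmer set lies below the other-species percentile on all 6 propagation 8 h and 30 h arrays, so its differences from or between them have no firm size. The rise of the brighter set at propagation 30 h against 8 h (1.56, SE 0.37, adjusted p = 0.0227) stood beside 0.76 (SE 0.28, adjusted p = 0.133) on the dimmer set, which for that reason says nothing of the rise. The call was lost with recentred arrays (adjusted p = 0.0628). Leaving out propagation 8 h A ended the call too (adjusted p = 0.0720), as did leaving out 8 h C (0.0718), or 30 h A (0.0572), B (0.0651) or C (0.0717).

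AAD14 had its highest group mean at fermentation 60 h. In fermentation AAD14 had log2 levels of 7.60, 7.22 and 7.06 at 8 h, 7.01 and 6.92 at 30 h, and 8.94, 8.15 and 8.14 at 60 h. In propagation AAD14 had log2 levels of 8.26, 6.54 and 6.68 at 0 h, 6.23, 5.75 and 5.80 at 8 h, and 6.60, 6.72 and 6.57 at 30 h. At fermentation 60 h, fermentation 8 h and propagation 0 h, array A, which had the largest control gap of its group, had the highest AAD14 and the highest brighter-set AAD4 level. Propagation 0 h C, with a gap of 3.04, had levels of both genes near those of B, and the part of the gap in these levels was not tested. AAD14 rose by 1.11 at fermentation 60 h against 8 h (SE 0.36, 2.16-fold, adjusted p = 0.0456 in limma). That call was lost with recentred arrays (1.01, adjusted p = 0.0878), with fermentation 8 h B and C averaged (1.04, adjusted p = 0.147), without the 6 arrays of propagation 8 h and 30 h (adjusted p = 0.102), and when any array other than the 3 of propagation 0 h was left out (0.85 to 1.27, adjusted p from 0.0504 to 0.184). Without the 3 arrays of large gap it passed. Against propagation 0 h AAD14 rose by 1.25 (SE 0.36, adjusted p = 0.0112), which did not pass without propagation 0 h B (0.94, adjusted p = 0.0626) or C (1.01, adjusted p = 0.0546), or fermentation 60 h A (0.98, adjusted p = 0.0578).

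LOT6 (YLR011W) encodes a flavin-dependent quinone reductase that associates with the proteasome. In fermentation LOT6 had log2 levels of 7.72, 7.52 and 7.60 at 8 h, 7.60 and 7.44 at 30 h, and 7.74, 7.68 and 7.46 at 60 h. In propagation LOT6 had log2 levels of 7.84, 6.72 and 7.10 at 0 h, 8.04, 8.82 and 8.14 at 8 h, and 8.46, 8.51 and 8.78 at 30 h. Fermentation was flat, and the propagation 8 h and 30 h arrays lay above all other arrays. LOT6 rose by 1.11 at propagation 8 h (SE 0.27, adjusted p = 0.00170 in limma) and by 1.36 at 30 h (SE 0.27, 2.57-fold, adjusted p = 0.000298). It is in the second dimmest of the 4 brightness classes, of which 25.7% rose at 8 h and 30.7% at 30 h. At fermentation 8 h LOT6 was 0.72 lower on the log2 scale than at propagation 8 h (-0.72, SE 0.27, adjusted p = 0.0267), a call that was lost without propagation 8 h B (-0.47, adjusted p = 0.151) or fermentation 8 h B (adjusted p = 0.0760) or C (0.0613), or with the last pair averaged (0.0683). At 30 h the difference was -1.07 (SE 0.30, adjusted p = 0.00547).

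**Figure D3:**
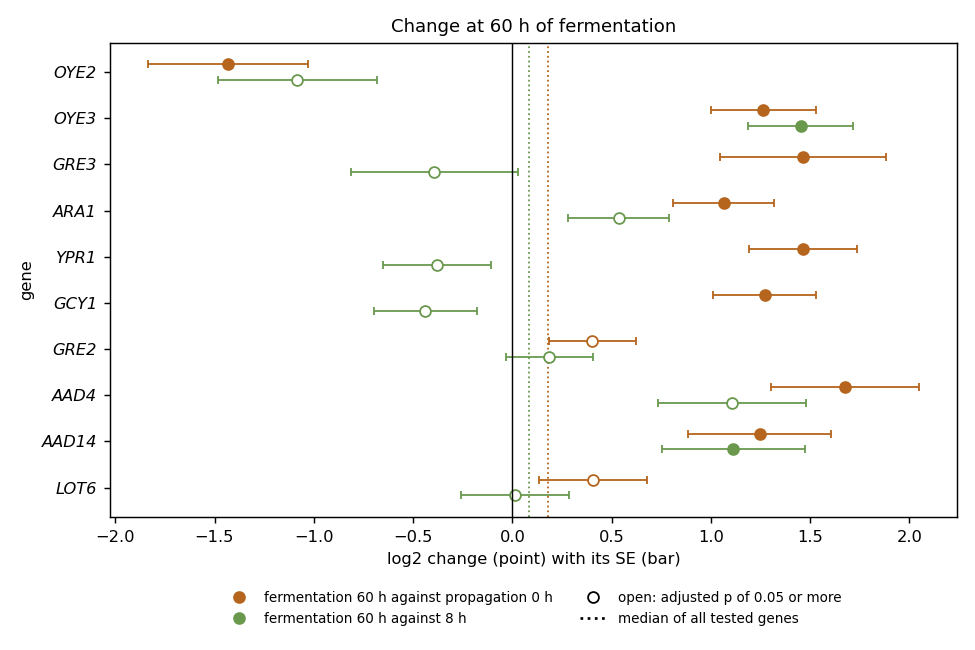
Log2 change (point) with its SE (bar) of each gene at fermentation 60 h, against propagation 0 h (brown) and against fermentation 8 h (green), where open points have an adjusted p of 0.05 or more and dotted lines mark the median of all genes. OYE3 and AAD14 are the filled points in both comparisons, and OYE2 is the gene with a negative value that passed against propagation 0 h.

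**Figure D4:**
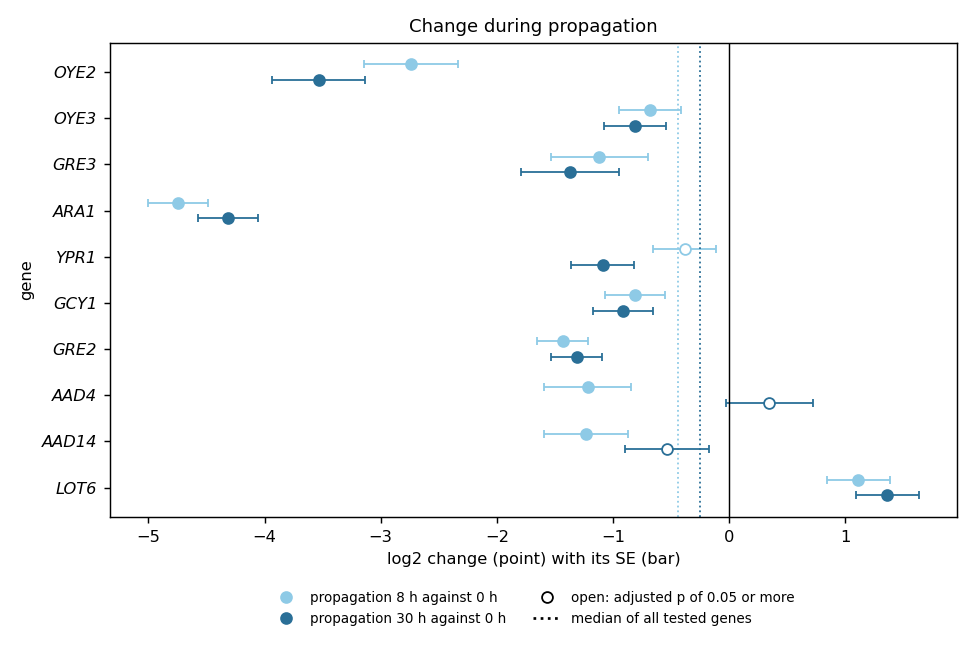
Log2 change (point) with its SE (bar) of each gene at propagation 8 h (light blue) and 30 h (dark blue) against 0 h, where open points have an adjusted p of 0.05 or more and dotted lines mark the median of all genes. ARA1 at -4.75 and -4.32 and OYE2 at -2.74 and -3.54 lie farthest below 0, and LOT6 at 1.11 and 1.36 lies above it.

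Other reductases of the same kinds moved in both directions. Of 18 further aldehyde, aldo-keto and quinone reductase genes listed, 16 were measured, and at fermentation 60 h against propagation 0 h 7 rose and 2 fell, with a median log2 change of 0.67. YDL124W, an NADPH-dependent alpha-keto amide reductase, rose by 2.73 (adjusted p = 1.10e-06 in limma). PST2, a flavodoxin-like protein, rose by 1.92 (adjusted p = 0.000957). ARI1, a reductase of aromatic and other aldehydes, fell by 1.75 on the log2 scale (adjusted p = 0.000552). At propagation 8 h, 6 of the 16 fell and 3 rose, with a median log2 change of -0.02. RFS1, another flavodoxin-like protein, fell by 3.22 on the log2 scale, and FRM2, a nitroreductase-like protein, rose by 2.48.

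Of 13 genes that supply NADPH, 9 rose and 1 fell at fermentation 60 h against propagation 0 h, with a median log2 change of 1.26. GND2, the minor 6-phosphogluconate dehydrogenase, rose by 2.98 (adjusted p = 4.68e-07 in limma), and IDP3, the peroxisomal isocitrate dehydrogenase, rose by 2.47 (adjusted p = 8.48e-06). The 1 gene that fell was GND1, the major isoform of GND2, by a log2 change of -1.14 (adjusted p = 0.00332), and it is named because it was seen to fall. ZWF1, the glucose-6-phosphate dehydrogenase that opens the pathway, rose by 2.10 (adjusted p = 0.0128). At propagation 8 h, 6 of the 13 fell and 3 rose, with a median of -0.79. IDP2, the cytosolic isocitrate dehydrogenase, fell by 5.88 on the log2 scale, and ALD6, the cytosolic aldehyde dehydrogenase, fell by 4.17.

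Of 10 regulators, 4 rose and none fell at fermentation 60 h against propagation 0 h, with a median log2 change of 0.54. They were the oxidative stress regulator YAP1 (1.57, adjusted p = 0.00153 in limma), the drug resistance regulators PDR1 (1.27) and YRR1 (1.07), and STB5 (0.90), which acts on pentose phosphate genes. At propagation 8 h, 3 rose and 3 fell. The 3 glyoxalase genes, whose enzymes clear methylglyoxal by the glutathione route, all rose at fermentation 60 h against propagation 0 h and all fell at propagation 8 h. GLO1 rose by 2.04 (adjusted p = 3.04e-05 in limma), and GLO2 fell by 3.45 on the log2 scale at propagation 8 h. These counts carry the same background as the 10 reductases, 25.3% rising and 15.7% falling at fermentation 60 h and 24.3% and 43.1% at propagation 8 h.

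The genes most like ARA1 and GRE3, which have the widest range of group means among the 10, and like OYE2 and OYE3 were found by Pearson's r across arrays, as a description. Over 17 arrays, which share the split of the 6 arrays, ARA1 was closest to ACP1 (0.995), RDL1 and ERG8, and GRE3 to AIP1 (0.988), COX20 and YMR315W. OYE2 was closest to RPS0A (0.994), KRS1 and ASC1, and OYE3 to YLL056C (0.932), NPL4 and SNF8. Over the other 11 arrays alone, OYE2 was closest to RPL13A (0.978), RPS0A and RPS24B, which encode ribosomal proteins. On those 11 arrays OYE3 was closest to SPI1 (0.984), YCR102C and STR3, ARA1 to DDR48 (0.980), NDE2 and NQM1, and GRE3 to RNY1 (0.985), COX20 and APE4. Among the 10 genes themselves, AAD4 and AAD14 had an r of 0.966 over the 11 arrays and YPR1 and GCY1 one of 0.922, while OYE2 was opposed to AAD4 at -0.929. Arrays of large control gap are among these 11, and all of these correlations share them.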

How the data were processed

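RNA of 17 yeast samples was measured on Affymetrix yeast arrays. The deposited values are log2 levels per probe set, and RMA is named per the submitters' processing notes, with its version not given and the notes do not say which arrays it was run on jointly. These values entered the tests unchanged. No raw intensities were analysed here, and the number of arrays limits the precision.

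Probe sets were named through the platform annotation and a RefSeq gene table. For genes with several probe sets (47) the one of highest mean was used, which gave 5449 genes, none removed for low signal. AAD15 and AAD16 were not matched. With limma 3.58.1 in R 4.3.3 (lmFit, eBayes), group means were estimated from all 17 arrays in a single model, and 11 contrasts were tested two-sided. A gene rose or fell at a Benjamini-Hochberg adjusted p under 0.05 over all genes. The steps were tested on simulated data. Pair differences were tested by exact permutation.

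All 10 members are named, with up to 4 genes per list in order of change and the 3 nearest genes by Pearson's r for 4 members. Members and lists were chosen with earlier results of these data known. Titles of fermentation 8 h and 30 h arrays end in a mark the labels do not explain, which cannot be told apart from those groups. Same-letter arrays correlated in their residuals at -0.152 to 0.777, over 0.1 in 14 of 40 pairs, but in all 9 pairs among propagation 0 h, fermentation 8 h and fermentation 60 h (0.165 to 0.777). On that check alone the letters were taken to pair those 3 groups, though the labels name nothing the letters share. A fit with the letter as a block was added for them after the data were seen. Array A has the largest control gap in each of the 3 groups, and residuals within a group depend on each other. The 9 pairs thus cannot show by themselves that B or C arrays are paired. Alternatives changed the probe set, filter, scaling, samples, weights, prior, letter block and arrays left out.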

Additional observations from a re-analysis of the deposited data

How the results depend on the processing

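Counts of called genes depended on the fit more than directions did. With array weights, called genes numbered 514 at propagation 30 h against 8 h (273 in the reported fit), 313 at fermentation 30 h against 8 h (0), 3606 at fermentation 60 h against 8 h (864), 2025 at 60 h against 30 h (235), 3184 at fermentation 8 h against propagation 0 h (1529), 3564 at fermentation 60 h against propagation 0 h (2236) and 349 for the difference of time changes (15). The called members were then 8, 7 and 9 at fermentation 60 h against 8 h, 60 h against 30 h and 8 h against propagation 0 h, and 1 for the difference. With the groups compared fitted alone, called genes numbered 1609, 561, 833, 1299 and 68 at fermentation 60 h against 8 h, 60 h against 30 h, 8 h against propagation 0 h, 60 h against propagation 0 h and for the difference. Called members were 4, 2, 4 and 1 at 60 h against 8 h, 60 h against 30 h, 60 h against propagation 0 h and for the difference, and 4 at propagation 8 h against 0 h. At propagation 8 h against 0 h the gene count fitted alone stayed within 1.5 times of the 3673 in the reported fit.

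Recentred arrays gave 4 members at propagation 8 h, beside 66% of all genes. They gave 0 at propagation 30 h against 8 h, beside 3.85%, and 26 genes for the difference. Quantile normalization gave 5 members at propagation 8 h, 141 genes at fermentation 60 h against 30 h and 37 for the difference. Reading the other AAD4 probe set gave 0 members at propagation 30 h against 8 h and 1 at fermentation 60 h against 30 h, and turned the uncalled AAD4 value of -0.06 at fermentation 30 h against propagation 30 h to 1.27. Leaving out the dimmest 25% of genes, which removes OYE3, gave 1 member at fermentation 60 h against 30 h. The replicate block by letter over all arrays gave 4 members at fermentation 60 h against 8 h, beside 19.1% of all genes. It gave 1 at 60 h against 30 h, beside 4.75%, and 24 genes for the difference. No other count moved by over 1.5 times. Gene counts not given in this section thus stayed within 1.5 times of the reported fit. That fit had 3673 genes at propagation 8 h against 0 h and 235 at fermentation 60 h against 30 h. In most groups the arrays share only a letter. Among propagation 0 h, fermentation 8 h and fermentation 60 h, where same-letter arrays deviated together, the block within those 9 arrays gave 3 members and 1065 genes at fermentation 60 h against 8 h, and AAD4 there was the single member call it changed.

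After the data were seen, 4 alternatives were added, the block within those 3 groups among them. Without the 3 arrays of largest control gap, 914 genes and 3 members were called at propagation 30 h against 8 h. There were 636 genes and 3 members at fermentation 60 h against 30 h, and 81 genes and 1 member for the difference. Members numbered 4 at fermentation 60 h against 8 h, beside 21.8% of all genes. They numbered 5 at fermentation 8 h against propagation 0 h, beside 34.3%. Averaging fermentation 8 h B and C, which differ by an SD of 0.123, gave 440 genes and 1 member at 60 h against 8 h and 7 genes for the difference. Without the 6 propagation 8 h and 30 h arrays there was 1 member at 60 h against 8 h and 143 genes at 60 h against 30 h.

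Leaving out single arrays gave 149 to 698 genes and 0 to 2 members at propagation 30 h against 8 h, 0 to 4 genes at fermentation 30 h against 8 h, 431 to 1484 genes and 1 to 4 members at 60 h against 8 h, and 2 to 764 genes and 0 to 5 members at 60 h against 30 h. The ranges were 1019 to 1905 genes and 3 to 7 members at fermentation 8 h against propagation 0 h, and 6 to 117 genes and 0 to 1 members for the difference. Leaving out propagation 0 h A gave the highest member count of each range and the highest gene counts except the 4, which came without fermentation 30 h C, as did the 2. The 431 came without fermentation 8 h B and the 1019 without 8 h C. Leaving out 1 of the 2 fermentation 30 h arrays assumes that the other varies like the remaining groups. Among 1870 member values with an array left out, 37 calls were lost and 22 gained, and among 1169 other member values 29 were lost and 53 gained. No member called in the reported fit changed sign. The causes were not tested.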
